A study of Homo sapiens with 23 samples.

Results

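The 41 genes described here are genes of the cell cycle, 16 of DNA replication and S-phase entry and 25 of mitosis, picked by symbol from the 27589 genes of a table of normalized RNA-seq values. Genes were tested where their mean value reached 10, which all 41 did, as did 16063 genes in all. The values come from 23 subcutaneous xenografts of SCC-13 cells in immunodeficient NCG mice, harvested on day 26. SCC-13 is a long-used cell line from a human squamous cell carcinoma of the skin. Poly(A) libraries were made from 500 ng of RNA each. Of the tumours, 12 are labelled hFWE WT, from the lines 5B2, 6C9 and 6C10 with 4 tumours each, and 11 are labelled hFWE KO, from the lines 2F7 with 3 tumours and 2B8 and 1G10 with 4 each. hFWE is human Flower, a transmembrane protein encoded by CACFD1, and the series concerns its isoform hFWE4 and cornification. All tumours had the same host strain, injection route and day of harvest. The labels name the lines by code and do not say whether a line is 1 clone, so genotype can be told from line only through the 3 lines on each side. Nor do they tie tumours to mice, and the p-values rest on the spread between these tumours only. The design sets tumours with and without intact hFWE side by side, and the question addressed here is whether the genes that cells need to copy and divide their genome differ between them.

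A dividing cell first licenses its replication origins: CDC6 and CDT1 load the MCM2 to MCM7 helicase, the GINS complex joins it when it fires, and PCNA clamps the polymerases to DNA while ribonucleotide reductase and thymidylate synthase supply nucleotides. E2F transcription factors, released from the retinoblastoma protein by cyclin-dependent kinases, switch these genes on before S phase. Mitotic genes follow later, under FOXM1 and the B-MYB and MuvB proteins, and their RNA is highest in G2 and M phase: they encode cyclin B and CDK1, the Aurora and Polo kinases, kinetochore proteins, spindle motors and the spindle checkpoint. In stratified squamous epithelium and in well differentiated squamous carcinoma, dividing cells lie mostly in the basal layer and leave the cycle as they cornify.

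Assigned reads, estimated from the smallest step of the values, ranged from 13082214 to 22093213 in 21 libraries. The other 2 were WT tumours of line 6C9: specimen 5532 had 7011069 reads, and specimen 5533 had 2037751, so that 1 read there equals a value of 9.14. Specimen 5533 was the lowest of 23 tumours in 41% of all genes tested and lowest or highest in 72.5%, so results on members that rest on it are also given without it. KO specimen 5549 of line 1G10 stood apart in the cell cycle genes and is likewise left out where it bears on a value. CACFD1 had a mean of 373 ± 47.1 over WT tumours (SD, n = 12) and of 276 ± 58.9 over KO tumours (SD, n = 11), with overlapping ranges of 286 to 432 and 167 to 370. It was thus still present as RNA in all libraries labelled KO. The keratinocyte markers KRT5, KRT14, KRT17 and TP63 were present in all 23 tumours, with a lowest value of 1334 for TP63. In a bulk sample, fewer cycling cells and less of an RNA in each cell cannot be told apart.

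The promoters of the members differed in letters between the replication and mitotic groups, and 8 are shown because their genes recur in the results. RefSeq promoters on GRCh38.p14, from 250 bases before to 50 bases after the start, were found for 32 of the 41 members, 13 of replication and 19 of mitosis. The members not matched were AURKA, BIRC5, CCNE2, FOXM1, MCM4, MCM5, TPX2, TTK and UBE2C. The 120 bases just before the start are printed 5′ to 3′ on the strand of the gene. Capitals mark CCAAT or TTTGAA or TTTCCCGC or TTTGGCGC on either strand, so that CCAAT on the other strand reads ATTGG and TTTCCCGC reads GCGGGAAA.
MKI67, chr10:128126424-128126543, minus strand: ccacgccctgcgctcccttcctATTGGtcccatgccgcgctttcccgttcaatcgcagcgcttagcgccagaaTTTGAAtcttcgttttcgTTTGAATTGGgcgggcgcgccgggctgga
CCNB2, chr15:59105026-59105145, plus strand: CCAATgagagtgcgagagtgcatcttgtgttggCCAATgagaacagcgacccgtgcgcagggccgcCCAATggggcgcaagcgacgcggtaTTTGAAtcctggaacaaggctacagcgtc
PLK1, chr16:23678769-23678888, plus strand: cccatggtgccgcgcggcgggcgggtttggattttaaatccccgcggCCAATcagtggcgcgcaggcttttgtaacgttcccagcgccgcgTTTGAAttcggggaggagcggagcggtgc
BUB1B, chr15:40160949-40161068, plus strand: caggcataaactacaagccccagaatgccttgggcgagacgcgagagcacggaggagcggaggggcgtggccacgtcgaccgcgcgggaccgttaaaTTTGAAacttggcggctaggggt
E2F1, chr20:33686386-33686505, minus strand: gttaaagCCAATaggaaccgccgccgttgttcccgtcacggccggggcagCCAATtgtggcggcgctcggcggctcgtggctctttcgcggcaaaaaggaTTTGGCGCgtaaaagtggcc
E2F2, chr1:23531234-23531353, minus strand: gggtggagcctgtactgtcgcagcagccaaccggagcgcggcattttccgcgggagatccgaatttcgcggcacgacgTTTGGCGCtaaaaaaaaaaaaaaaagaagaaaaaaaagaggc
CDT1, chr16:88803669-88803788, plus strand: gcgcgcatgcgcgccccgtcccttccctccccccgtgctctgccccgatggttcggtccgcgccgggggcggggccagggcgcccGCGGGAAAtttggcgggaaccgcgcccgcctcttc
MCM6, chr2:135876444-135876563, minus strand: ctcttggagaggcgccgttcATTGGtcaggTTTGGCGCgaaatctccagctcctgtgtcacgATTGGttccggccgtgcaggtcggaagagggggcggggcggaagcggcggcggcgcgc

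TTTGAA is the letters of the cell cycle homology region that MuvB complexes bind, CCAAT is the site of NF-Y, and TTTCCCGC and TTTGGCGC are forms of the E2F site. In MKI67 a TTTGAA that begins 29 bases before the start overlaps an inverted CCAAT. CCNB2 and PLK1 also have TTTGAA beginning 29 bases before their starts, and BUB1B has it 23 bases before. In the whole 300-base windows, 12 of 19 mitotic promoters and 1 of 13 replication promoters, that of RRM1, held TTTGAA on either strand, against 18.2% of the 27305 genes in the promoter table. CCAAT was in 16 of 19 mitotic and 9 of 13 replication promoters and in 39.7% of all genes. Both together were in 11 of 19 mitotic promoters, in 1 of 13 replication promoters and in 7.26% of all genes. In contrast, TTTCCCGC or TTTGGCGC was in 10 of 13 replication promoters, in the 2 mitotic promoters of CENPA and NUSAP1, and in 2.75% of all genes. E2F1, E2F2, CDC6 and MCM6 held TTTGGCGC, and CDT1, GINS2, MCM3, MCM7, PCNA and TYMS held TTTCCCGC. These matches describe letters and are not binding sites measured here.

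No cell cycle gene differed between KO and WT tumours past the threshold. limma with Benjamini-Hochberg adjustment over all 16063 genes called 0 of the 41 members, where the background is 0.00623% of genes, a single gene without a symbol. The lowest adjusted p of a member was 0.236, for E2F2. At an unadjusted p under 0.05, 1 member was lower in KO tumours (E2F2) and 1 was higher (BUB1B), where 6.63% of all genes were lower and 5.9% higher. The median KO minus WT difference, on the log2(value + 1) scale used for all differences below, was 0.028 over the replication members, 0.18 over the mitotic members and 0.028 over all genes. It was positive in 9 of 16 replication and 21 of 25 mitotic members, against 54.2% of all genes. In this fit the 95% interval lay within 2-fold in either direction for 16 of 16 replication members, 22 of 25 mitotic members and 80.4% of all genes. The 3 exceptions were MKI67, CDC25C and AURKA, whose intervals reached above a 2-fold higher value in KO tumours. Without specimen 5549 the counts were 15 of 16, 24 of 25 and 12920 of 16070 genes. The line block had a correlation of 0.0077, so these intervals rest on the spread between tumours. They may be too narrow for a comparison of 3 lines with 3.

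**Figure D1:**
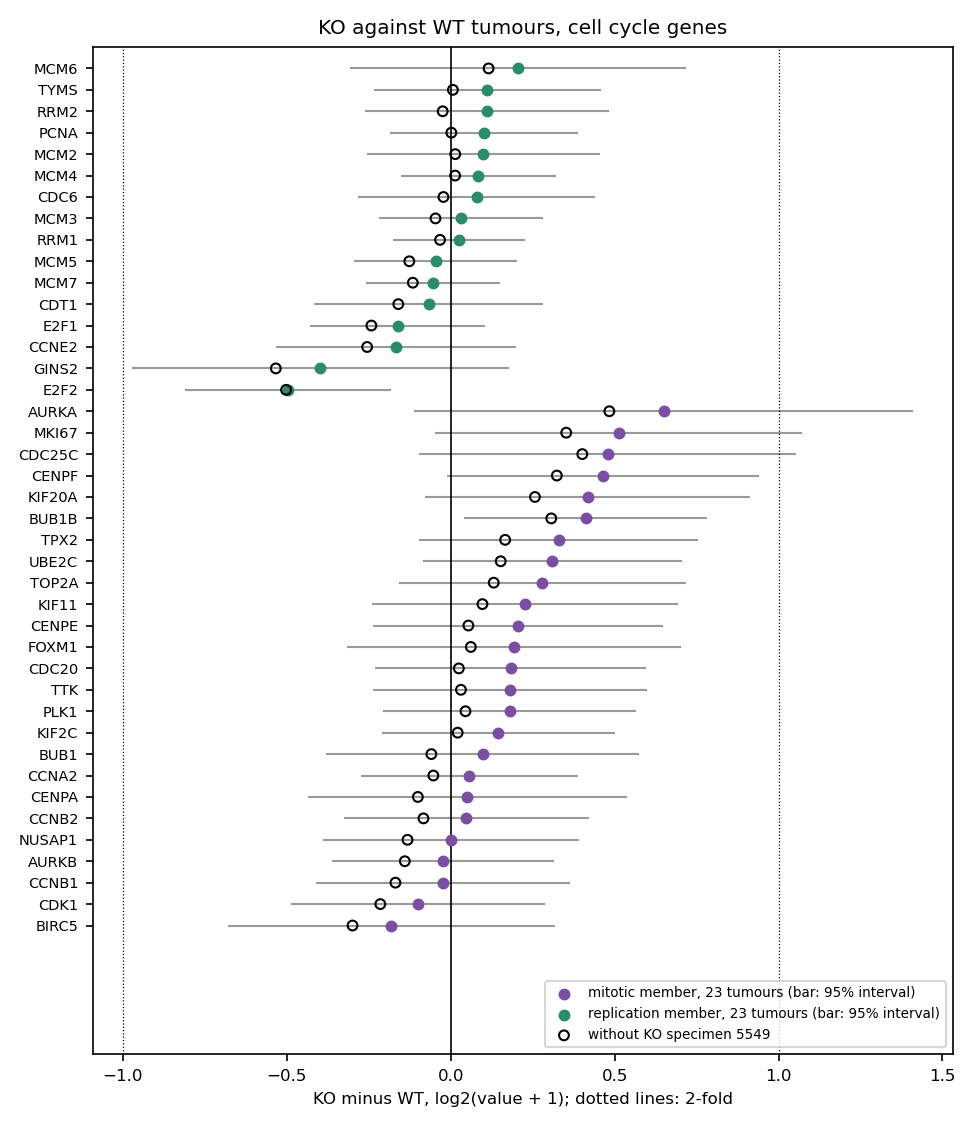
KO minus WT difference in log2(value + 1) for each of the 41 members (filled points, with 95% intervals from limma, 12 WT and 11 KO tumours) and the same without KO specimen 5549 (open points). All intervals but those of E2F2 and BUB1B include 0, and the open points of the mitotic members lie to the left of the filled ones.

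No helicase loader and no subunit of the helicase itself passed the test between the genotypes. CDC6, an ATPase of the origin recognition step, was 82.2 to 263 in WT tumours (median 158) and 120 to 333 in KO tumours (median 154). CDT1, its partner in loading, was 84.3 to 181 in WT (median 104) and 71.4 to 203 in KO (median 115). Their ranges overlapped almost whole, with differences of 0.079 (SE 0.18, adjusted p = 0.830) and -0.068 (SE 0.17, adjusted p = 0.850). MCM2, a subunit of the replicative helicase, was 128 to 362 in WT (median 305) and 219 to 525 in KO tumours (median 277). Its lowest value was in the shallow specimen 5533 and its highest in specimen 5549. Its difference was 0.10 (SE 0.17, adjusted p = 0.783), and 0.014 without specimen 5549, where that of CDC6 was -0.022 and that of CDT1 -0.16. The other subunits MCM3 to MCM7 had differences from -0.055 for MCM7 to 0.21 for MCM6. In MCM6 the WT minimum of 54.8 was specimen 5533, the next lowest WT value was 218, and without specimens 5532, 5533 and 5549 the difference was -0.031 (SE 0.13).

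GINS2, a subunit of the complex that activates the helicase, was 36.8 to 329 in WT tumours (median 65.2) and 35.5 to 137 in KO tumours (median 48.3). The WT value of 329 was specimen 5533, and 10 of 11 KO values were under the WT median. The difference of -0.40 (SE 0.28, adjusted p = 0.522) was -0.083 without the 2 shallow libraries. PCNA, the sliding clamp, was 522 to 1096 in WT (median 786) and 640 to 1650 in KO (median 788), with a difference of 0.10 (SE 0.14, adjusted p = 0.723), and 0.0017 without specimen 5549. The nucleotide enzymes RRM1, RRM2 and TYMS had differences of 0.025, 0.11 and 0.11 with standard errors of 0.098, 0.18 and 0.17, and of -0.033, -0.025 and 0.0064 without specimen 5549. RRM1, the large subunit of ribonucleotide reductase, had a 95% interval from -0.18 to 0.23. CCNE2, a cyclin that drives S-phase entry with CDK2, was 48.2 to 147 in WT (median 69.8) and 43.3 to 121 in KO (median 65.3), a difference of -0.17 (SE 0.18, adjusted p = 0.646), and -0.0050 without the 2 shallow libraries.

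E2F2, an activating E2F transcription factor (chr1:23506438-23531234 on hg38 in the deposited table), was the member with the smallest p. Its values were 104 to 223 in WT tumours (median 192) and 91.4 to 211 in KO tumours (median 118). The groups overlapped, with 9 of 11 KO tumours below the WT median. The difference was -0.50 (SE 0.15, 95% interval -0.81 to -0.18, adjusted p = 0.236 with limma). A two-sided permutation test over the 23 tumours gave p = 0.0053 for E2F2, unadjusted, with MKI67 and NUSAP1 also tested so. E2F2 had the smallest limma p of all members in these same data, and NUSAP1 the largest. The permutation p for E2F2 therefore adds no support to that of limma. The permutations also moved tumours across lines. Over the 6 line means the exact permutation p was 0.2, where 0.1 is the smallest that 3 lines against 3 allow. The WT lines 5B2, 6C9 and 6C10 had E2F2 means of 194, 170 and 188. The KO lines 2F7, 2B8 and 1G10 had means of 181, 120 and 109. The KO line 2F7 lay among the WT lines, with 205, 211 and 127 in its tumours, and its difference from the WT lines was -0.033 (SE 0.21). Lines 2B8 and 1G10 were lower, with differences of -0.61 (SE 0.19, adjusted p = 0.393) and -0.73 (SE 0.19, adjusted p = 0.207). The limma F test among the 3 KO lines gave an adjusted p of 1 for E2F2, which was the single member with an unadjusted p under 0.05 there, where 2.22% of all genes had one.

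The level of chromosome 20 genes moved with E2F2. The median level of the chromosome 20 genes other than members, relative to their means over the 23 tumours, fell into 2 ranges: 0.22 to 0.39 (log2) in 8 tumours, of which 2 were WT and 6 KO, and -0.31 to -0.12 in the other 15. E2F2 itself lies on chromosome 1. Among WT tumours it was 104 and 139 in the 2 with the higher chromosome 20 level and 164 to 223 in the other 10, with no overlap. Among KO tumours it was 91.4 to 133 in the 6 with the higher level, and 109, 118, 161, 205 and 211 in the other 5. With the chromosome 20 level as a covariate, the KO minus WT difference of E2F2 was -0.30 (SE 0.12, adjusted p = 0.707 with limma), with a slope of -1.16 (SE 0.25) per log2 unit of that level. Such a slope was not particular to E2F2: GINS2 had -1.17 (SE 0.58) and BIRC5 -1.02 (SE 0.50). The share of all genes split by that level among WT tumours was not determined. The 2 WT tumours with the higher level, specimens 5529 and 5531, also had the lowest WT means over 12 late keratinocyte differentiation genes. These were 13.00 and 12.86, against 13.49 to 14.53 in the other WT tumours. The part of the chromosome 20 level in the genotype difference was not tested beyond this fit. Specimen 5549, which stood highest in most other members, had 133 in E2F2, rank 15 of 23 from the top.

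E2F1, the better studied activating E2F (chr20:33675477-33686386), was 113 to 201 in WT tumours (median 145) and 89.1 to 226 in KO tumours (median 124), a difference of -0.16 (SE 0.13, adjusted p = 0.561). Its 3 KO line means of 126 to 140 lay below or near the WT line means of 135 to 157 on the plain scale. As means of log2 values the 3 KO lines were all below the 3 WT lines, alone among the replication members, where 8.87% of all genes were so placed. The highest E2F1 value was again that of specimen 5549, and without it the difference was -0.24 (SE 0.11, adjusted p = 0.530).

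**Figure D2:**
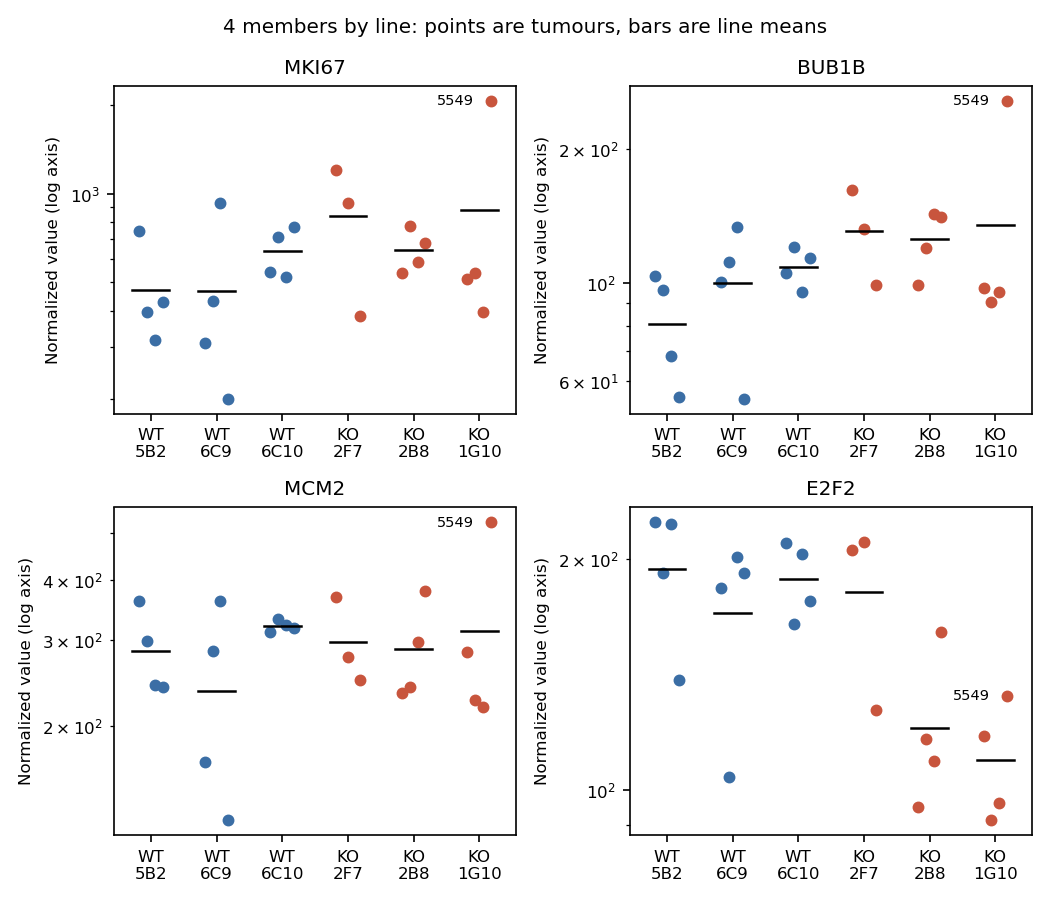
Normalized values of MKI67, BUB1B, MCM2 and E2F2 on log axes, by line, with a point per tumour (WT blue, KO red) and a bar at each line mean. Specimen 5549 is the highest point in the first 3 panels, at 2071, 256 and 525, and lies within the range of the other tumours in E2F2, at 133.

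MKI67, the gene of the Ki-67 proliferation antigen (chr10:128096659-128126424), was 201 to 931 in WT tumours (median 475) and 383 to 2071 in KO tumours (median 584). The KO values were above the WT median in 9 of 11 tumours, and the groups overlapped. The difference was 0.51 (SE 0.27, 95% interval -0.048 to 1.07, adjusted p = 0.438), and the permutation test over tumours gave p = 0.088. Its 3 KO line means lay above the 3 WT line means, for which the exact permutation p of 0.1 is the smallest possible. The extremes were single tumours: the lowest value, 201, was the shallow WT specimen 5533, and the highest, 2071, was KO specimen 5549. Without specimens 5532, 5533 and 5549 the difference was 0.34 (SE 0.23).

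BUB1B, the checkpoint kinase-like protein BubR1 (chr15:40161023-40221124), was 54.8 to 133 in WT tumours (median 102) and 90.2 to 256 in KO tumours (median 120). Only 6 of 11 KO tumours exceeded the WT median. The 3 lowest of the 23 values were all WT: 54.8 in the shallow specimen 5533, 55.3 in specimen 5529 and 68.3 in specimen 5528. The difference was 0.41 (SE 0.18, 95% interval 0.041 to 0.78, adjusted p = 0.350 with limma), and 0.31 (SE 0.16) without specimen 5549. Without specimens 5532, 5533 and 5549 it was 0.27 (SE 0.15, 95% interval -0.046 to 0.59). BUB1B overlaps PAK6, as CENPA overlaps SLC35F6, on the same strand in the deposited gene models, so reads could be shared. Another 10 members overlap a gene on the other strand, and 6 have a named pseudogene, so that their values are less certain. CENPF, a kinetochore protein (chr1:214603195-214664572), was 175 to 476 in WT (median 274) and 243 to 1062 in KO (median 355), a difference of 0.46 (SE 0.23, adjusted p = 0.410). Without specimen 5549, where CENPF was highest, the difference was 0.32 (SE 0.20). AURKA, the centrosomal Aurora kinase, was 9.14 to 188 in WT (median 134) and 103 to 529 in KO (median 152). Its WT minimum is a single read in specimen 5533, and its difference of 0.65 (SE 0.37, adjusted p = 0.459) was 0.18 (SE 0.18) without the 3 libraries that stand apart.

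No gene of mitotic entry passed the test between the genotypes. CDK1, the mitotic kinase, was 119 to 338 in WT (median 184) and 121 to 375 in KO tumours (median 162), a difference of -0.10 (SE 0.19, adjusted p = 0.799). Its cyclins CCNA2, CCNB1 and CCNB2 had differences of 0.057, -0.024 and 0.047, each with a standard error of 0.16 to 0.19. CDC25C, the phosphatase that activates CDK1, was a low gene with 3.90 to 24.2 in WT and 11.7 to 40.6 in KO, and a difference of 0.48 (SE 0.28, adjusted p = 0.467). Its WT minimum was the shallow specimen 5532, and without specimens 5532, 5533 and 5549 the difference was 0.26 (SE 0.27). FOXM1, the transcription factor of late cell cycle genes, had a difference of 0.19 (SE 0.25), and PLK1, the Polo kinase, of 0.18 (SE 0.19). TOP2A, the topoisomerase that untangles sister DNA, was 254 to 825 in WT (median 564) and 407 to 1745 in KO (median 635), a difference of 0.28 (SE 0.21, adjusted p = 0.545). Without specimen 5549 the differences were 0.13 for TOP2A, 0.061 for FOXM1, 0.045 for PLK1 and -0.21 for CDK1, and -0.053, -0.17 and -0.083 for the 3 cyclins.

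The remaining mitotic members lay in the same band. The anaphase genes CDC20 and UBE2C, an activator and an E2 enzyme of the anaphase-promoting complex, had differences of 0.18 (SE 0.20) and 0.31 (SE 0.19), which were 0.025 and 0.15 without specimen 5549. In the chromosomal passenger complex, AURKB was at -0.024 (SE 0.16) and BIRC5, the survivin gene, at -0.18 (SE 0.24), and at -0.14 and -0.30 without specimen 5549. BIRC5 was highest in specimen 5533 at 1078, against 199 to 517 in the other WT tumours, and its difference was 0.085 without the 2 shallow libraries. The checkpoint kinases BUB1 and TTK were at 0.10 and 0.18, and the centromere genes CENPA and CENPE at 0.051 and 0.20. Without specimen 5549 these 4 were at -0.059, 0.031, -0.10 and 0.054. Among spindle genes, KIF11 was at 0.23, KIF20A at 0.42, KIF2C at 0.15 and TPX2 at 0.33. Without specimen 5549 they were at 0.097, 0.26, 0.021 and 0.17. KIF11 and KIF20A had their lowest value, 82.2, in the shallow specimen 5533. Without specimens 5532, 5533 and 5549 KIF11 was at -0.031 and KIF20A at 0.22. NUSAP1, a microtubule-binding protein, had a difference of 0.0003 (SE 0.19), and of -0.13 without specimen 5549. Their adjusted p-values with limma began at 0.462, for KIF20A.

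Without specimen 5549 the excess of positive signs among mitotic members shrank. The median difference was then 0.045 over the mitotic members, positive in 16 of 25, and -0.040 over the replication members, positive in 5 of 16, against 0.027 and 54.5% over all genes. Without specimens 5532, 5533 and 5549 it was 0.057 over the mitotic members, positive in 17 of 25, and -0.036 over the replication members, positive in 4 of 16, where the sign was positive in 49.1% of all genes. Without the 2 shallow libraries alone, the mitotic median was 0.18 and all 25 were positive, as were 7956 of the 15924 genes tested in that fit. No member was called in any of these fits.

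Line means in this paragraph are means of log2 values unless stated. In 7 mitotic members the 3 KO line means all lay above the 3 WT line means: MKI67, PLK1, AURKA, BUB1B, CENPF, KIF20A and TPX2. No replication member was so placed, and 9.77% of all genes were. On the plain scale TOP2A, FOXM1, KIF2C and CDC25C were also so placed, and the share of all genes was not determined on that scale. Without specimen 5549 AURKA remained alone among the mitotic members, where 9.1% of all genes were placed higher, and E2F1 and GINS2 were on the lower side, where 8.17% of all genes were. Both counts are near those shares. Without the 2 shallow libraries as well, 0 of 25 mitotic members had higher KO line means (4.98% of all genes), and E2F1 and MCM7 had lower ones (4.36% of all genes). Against the mean of the WT lines, no KO line had a member past the threshold, and neither had any other gene (background 0% for each line). The median difference of the mitotic members was 0.15, 0.15 and 0.21 in the KO lines 2F7, 2B8 and 1G10, and that of the replication members was 0.022, -0.026 and 0.0066. The limma F test called 0 of 41 members among the WT lines (background 0.00623%, the gene PPIP5K2, named after its value was seen) and 0 among the KO lines (background 0%). At an unadjusted p under 0.05 there were 0 members among the WT lines, where 10.3% of all genes were, and among the KO lines E2F2 alone.

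KO specimen 5549 had the highest value of all 23 tumours in 36 of the 41 members, 13 of 16 in replication and 23 of 25 in mitosis, where 9.9% of all genes were highest in it. The ratio of its value to the median of the other 22 tumours was 1.82 in the median over the replication members and 2.86 over the mitotic members, against 0.996 over all genes tested. This single tumour has no replicate, so the ratios are a description. They exceeded 2 in 24 of 25 mitotic and 5 of 16 replication members, where 3.66% of all genes did. MKI67 was 2071 in specimen 5549, with 1208 in the next tumour (KO specimen 5538) and 482 ± 75.4 (SD, n = 3) in the other tumours of its line. KIF20A, a motor of cytokinesis, was 715 against 320 in the next tumour and 169 ± 7.65 in the rest of its line. TPX2, which anchors AURKA to the spindle, was 1252 against 492 and 306 ± 74.7. UBE2C was 570 against 240 and 157 ± 40.6.

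The replication members stood out by smaller ratios in specimen 5549. RRM2, the small subunit of ribonucleotide reductase, was 1124 there, with 603 in the next tumour and 333 ± 22.5 (SD, n = 3) in the rest of line 1G10. CDC6 was 333 against 263 and 140 ± 17.5. MCM7, with the lowest ratio of the helicase genes, was 1291 against 1103 and 731 ± 75.9, a ratio of 1.47 to the median of the other 22. The 5 members not highest in it were CCNE2, GINS2 and BIRC5, each behind the shallow specimen 5533, CDC25C behind KO specimen 5545, and E2F2.

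**Figure D3:**
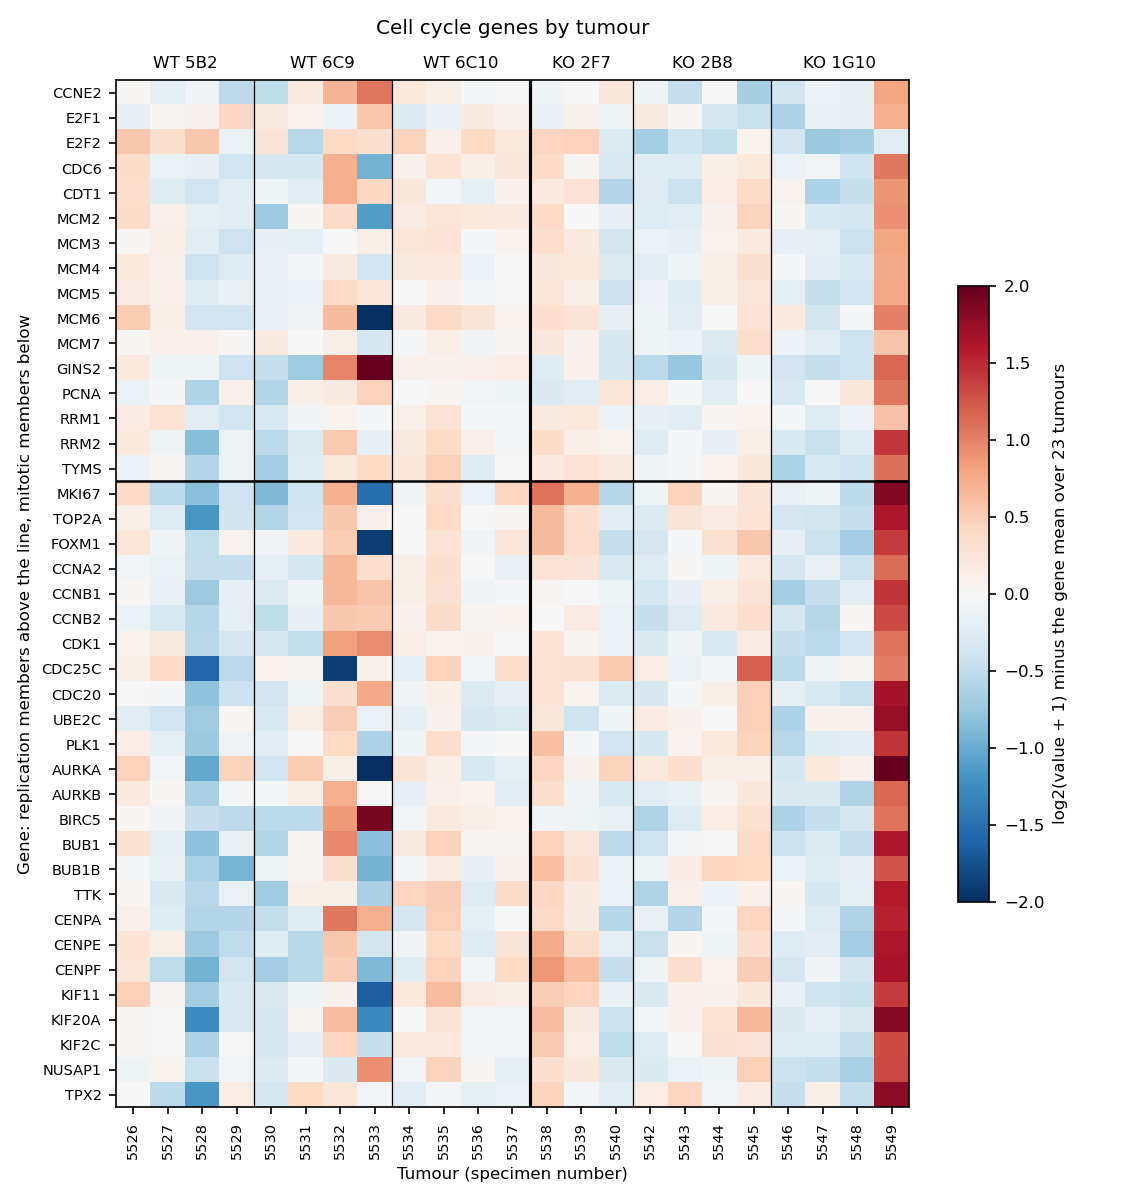
Level of each of the 41 members in each of the 23 tumours, as log2(value + 1) minus the gene's mean over the tumours, with colours saturated at 2 in either direction. The last column, KO specimen 5549, is red in 40 of 41 rows, and WT specimen 5533 mixes the highest and lowest values.

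Other genes also moved in specimen 5549. Its mean over the 12 late keratinocyte differentiation genes was 10.28 (log2), against 12.37 to 14.53 in the other 22 tumours, and its mean over the 12 basal keratinocyte genes was 14.29, against 12.31 to 14.05. Its chromosome 20 level was 0.27, among the 8 higher ones, and its estimated depth of 16354578 reads lay within the range of the rest. Of markers of other cell types, all 12 fibroblast genes were above 0 in it, with a summed value of 22999.7, where WT sums ran from 7299 to 24829 and KO sums from 9135 to 35643. The 8 endothelial genes summed to 403, in WT 277 to 451 and in KO 273 to 403, with PECAM1 at 0. The immune sum over 8 genes found was 434, in WT 479 to 659 and in KO 425 to 662, with ITGAM at 0. The 8 muscle genes summed to 1944, in WT 22.3 to 12942 and in KO 142 to 12217, and the 4 adipocyte genes found summed to 7.02, in WT 2.37 to 63.9 and in KO 2.95 to 15.8, with LEP and FABP4 at 0. The part of these genes in the level of the members was not tested.

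A balance between the 2 groups of members was read as the mean log2 value of the mitotic members minus that of the replication members in each tumour. It was -0.54 ± 0.18 (SD, n = 12) in WT tumours, from -0.97 to -0.31, and -0.30 ± 0.22 (SD, n = 11) in KO tumours, from -0.55 to 0.21. In 10 of 11 KO tumours it exceeded the WT median of -0.51, and the ranges overlapped. The WT lines 5B2, 6C9 and 6C10 had means of -0.63, -0.52 and -0.46, and the KO lines 2F7, 2B8 and 1G10 of -0.35, -0.27 and -0.30. The highest value was specimen 5549 and the next highest KO value was -0.16. Without specimen 5549 the mean of line 1G10 was -0.468, below the -0.464 of WT line 6C10, so the line means then overlapped. The mean over the KO tumours was then -0.35 ± 0.15 (SD, n = 10), and 9 of 10 exceeded the WT median. This value was given no test because the members were chosen with results of these data known. The replication mean itself was 8.06 ± 0.19 over the WT tumours and 8.03 ± 0.33 over the KO tumours. The mitotic mean was 7.52 ± 0.31 and 7.72 ± 0.53, respectively.

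**Figure D4:**
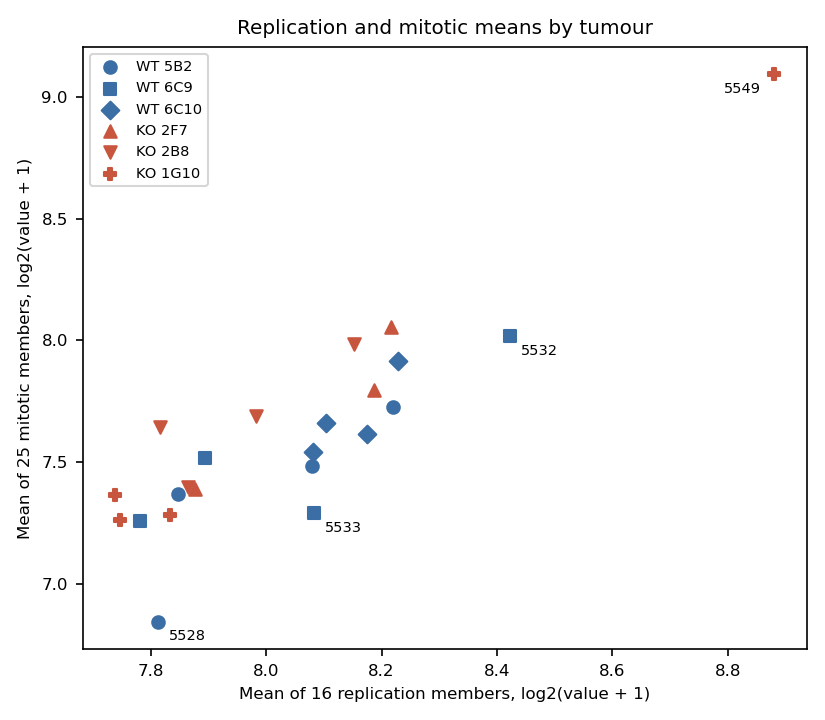
Mean log2(value + 1) of the 25 mitotic members against that of the 16 replication members, with a point per tumour (WT blue, KO red, shapes for lines). Specimen 5549 lies at 8.88 and 9.09, apart from all other tumours, and WT specimen 5528 has the lowest mitotic mean, 6.85.

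WT specimen 5528 of line 5B2 was the other extreme. It had the lowest value of 23 tumours in 16 of the 41 members, among them TOP2A at 254, CCNB1 at 229 and TPX2 at 160. The share of all genes that were lowest in it was not determined, so this count may not be particular to the members. Its estimated depth was 16020774 reads. Its replication mean of 7.81 was within the range of the other WT tumours, which began at 7.78.

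Most members varied together over the tumours. A Pearson r of at least 0.6 with MKI67 was reached by 8 of 16 replication and 16 of 24 other mitotic members, where 5.67% of all genes reached it, and 0 of the 40 had an r of -0.6 or lower. The 40 correlations are given as a description, since tumours of a line share their cells. CENPF had r = 0.97 and Spearman rho = 0.96 with MKI67 (permutation p = 1e-05 for r, the smallest that 100000 resamples give, n = 23). BUB1 had r = 0.90, KIF20A 0.89 and CDC6, the closest replication member, 0.88, each at the same smallest p. MKI67 and CENPF were 201 and 183 in specimen 5533 and 2071 and 1062 in specimen 5549. Leaving out these 2 tumours, the farthest from the median of MKI67, gave r of 0.97 for CENPF, 0.82 for BUB1 and 0.76 for CDC6.

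The members that did not follow MKI67 were the E2F genes and a few others. E2F1 had r = -0.018 and rho = -0.20, and E2F2 had r = 0.055 and rho = 0.13 (permutation p = 0.93 and 0.80 for r). GINS2 was at r = 0.031 and CCNE2 at 0.10 (permutation p = 0.88 and 0.64). Also low were PCNA at 0.29, BIRC5 at 0.15, CDC25C at 0.24, NUSAP1 at 0.38 and CDK1 at 0.41. These values moved with the libraries that stand apart. Without specimens 5532 and 5533, 34 of 40 members reached an r of 0.6 (5.22% of all genes), with r = 0.73 for BIRC5 and 0.62 for GINS2, while E2F1 was at 0.22 and E2F2 at 0.11. Without specimen 5549 17 of 40 reached it (7.65% of all genes). Without all 3 libraries 6 of 16 replication and 16 of 24 mitotic members did (4.58% of all genes), with r = 0.31 for GINS2, 0.51 for BIRC5, -0.24 for E2F1 and 0.21 for E2F2. Deviations from the line means, which remove differences between lines, gave 29 of 40 (4.38% of all genes).

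**Figure D5:**
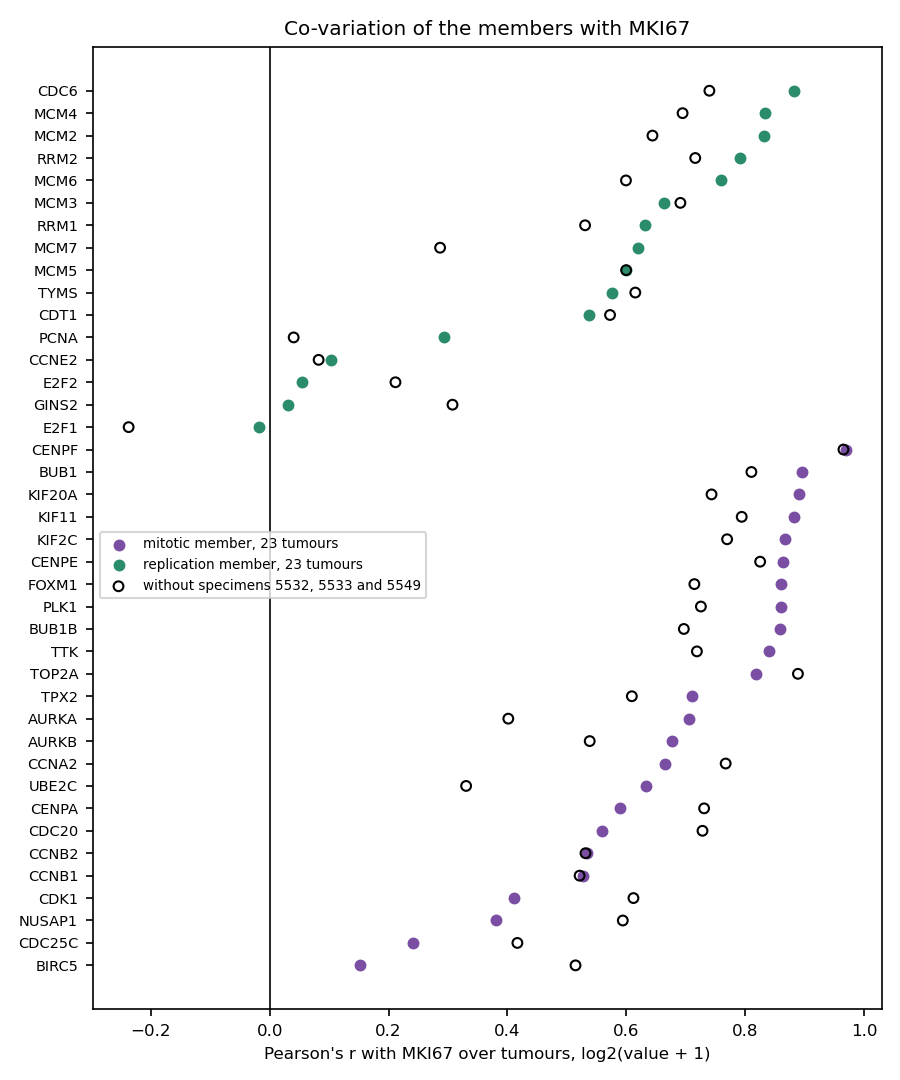
Pearson's r of each other member with MKI67 over 23 tumours (filled points) and over 20 tumours without specimens 5532, 5533 and 5549 (open points). CENPF stays at 0.97 in both, and E2F1, E2F2, CCNE2 and PCNA lie near 0.2 or below without the 3 libraries.

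Of the members, 5 lie on chromosome 20: E2F1, PCNA, UBE2C, AURKA and TPX2. In the fit with genotype and the chromosome 20 level, their slopes on that level were 0.52 to 1.66 per log2 unit, with standard errors of 0.27 to 0.76. The 410 other genes of chromosome 20, from whose median that level was taken, had a median slope of 1.05. The slopes of the other 36 members ran from -1.17 to -0.022, with a median of -0.38, and that of all genes had a median of 0.046. AURKA, with the steepest slope of the 5, was 179 and 188 in the 2 WT tumours with the higher chromosome 20 level. Of the other WT tumours only specimen 5526, at 180, was as high, so the ranges overlapped through that tumour. The rest were 9.14 to 157. With the covariate, the KO minus WT difference was 0.37 for AURKA (SE 0.38), 0.22 for TPX2 (SE 0.22) and 0.21 for UBE2C (SE 0.20), each below its value without it, and -0.25 for E2F1 (SE 0.13).

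The wider cell cycle showed the same. Of 56 other replication genes and 60 other mitotic genes, 0 were called between KO and WT tumours, with 0 and 3 at an unadjusted p under 0.05, where 12.5% of all genes were. Their median differences were 0.055, positive in 36 of 56, and 0.17, positive in 46 of 60, where 54.2% of all genes were positive. Among the replication genes the smallest p-values were those of BRCA2, of recombination repair, at 0.88 (SE 0.46, adjusted p = 0.432), and MCM8, a helicase of repair, at 0.60 (SE 0.32, adjusted p = 0.441). Both had their lowest WT value in the shallow specimen 5533, 0 for BRCA2 and a single read (9.14) for MCM8, with 17.3 and 70.8 next. Without that tumour the differences were 0.47 (SE 0.23) and 0.31 (SE 0.15). Among those with the highest values, POLD2, a polymerase delta subunit, was at -0.077 (SE 0.095; -0.018 without specimen 5533) and RPA1, which coats single-stranded DNA, at 0.16 (SE 0.094; 0.10 without specimen 5533). Of the mitotic genes, PIMREG was 10.4 to 43.3 in WT and 29.1 to 98.7 in KO tumours, a difference of 0.52 (SE 0.23, adjusted p = 0.354), and GTSE1 was at 0.39 (SE 0.18, adjusted p = 0.370). The abundant condensin gene SMC4 was at 0.037 (SE 0.19; 0.15 without specimen 5533 and -0.066 without specimen 5549) and the checkpoint gene BUB3 at -0.035 (SE 0.077). Specimen 5549 was highest in 36 of these 56 replication genes and 46 of these 60 mitotic genes, against 9.9% of all genes.

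Specimen 5549 was highest in 5 of 13 genes of G1 and in 8 of 27 genes that hold the cycle back, where 9.9% of all genes were highest in it. Of the 13 G1 cyclins, kinases and regulators 0 were called, with a median difference of 0.0014 and 7 positive. An unadjusted p under 0.05 was found for 3, where 12.5% of all genes had one and 54.2% were positive. CDC25B, a phosphatase that activates cyclin-dependent kinases, was 369 to 1151 in WT and 566 to 1768 in KO tumours, a difference of 0.57 (SE 0.19, adjusted p = 0.263). CDK7, the kinase that activates others by phosphorylation, was at -0.19 (SE 0.070, adjusted p = 0.303), CCND1, cyclin D1, at 0.14 (SE 0.073, adjusted p = 0.417) and CCND2 at -0.24 (SE 0.24). Of the 27 brakes 0 were called, with a median of -0.015 and 12 positive, and 2 had an unadjusted p under 0.05, against the same shares of all genes. E2F6, a repressive E2F, was at -0.23 (SE 0.10, adjusted p = 0.342) and RBL1, the p107 pocket protein, at 0.35 (SE 0.17, adjusted p = 0.395), and at 0.22 (SE 0.12) without specimen 5549, where it was highest. The abundant inhibitors CDKN2B, at 0.070 (SE 0.16; -0.050 without specimen 5533), and CDKN1A, at -0.015 (SE 0.12), were lower in specimen 5549 than in all other KO tumours, at 4348 and 3717.

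The late differentiation genes were set against the members in a correlation added after the data were seen. The mean of these 12 genes was 13.95 ± 0.54 (SD, n = 12) in WT tumours and 12.91 ± 1.00 (SD, n = 11) in KO tumours. Of the 12 genes 0 were called between the genotypes (lowest adjusted p = 0.227 with limma). An r over all 23 tumours therefore also carries differences between the genotypes. Over the 23 tumours, 0 of 41 members had an r of at least 0.6 with the mean of the 12 late genes, where 5.68% of all genes did. The 3 members UBE2C, TPX2 and KIF20A had an r of -0.6 or lower, where 2.95% of all genes did. UBE2C had r = -0.77 and rho = -0.54, TPX2 r = -0.74 and rho = -0.52, and KIF20A r = -0.60 and rho = -0.26 (permutation p = 0.00083, 0.00077 and 0.0067 for r). These 3 members were picked by that same r, so the p-values add no support. The permutations also moved tumours across lines, and the p-values are not adjusted. Without specimen 5549 the r values were -0.46, -0.43 and -0.25, and 0 members were at -0.6 or lower (4% of all genes). E2F2 ran the other way, with r = 0.598 and rho = 0.75 (permutation p = 0.00097 for r, with the same limits). Its r was 0.74 without specimens 5549 and 5542, the farthest from the median of the late genes and 0.15 for deviations from line means. MKI67 was at -0.45 over all tumours and at -0.066 without specimen 5549.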

How the data were processed

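The authors deposited 1 table with a normalized signal, a scaled read abundance, for each gene in each tumour. STAR, DESeq2 and hg38 are named in the submitters' processing notes, without versions. Not given in the sources used here are the handling of mouse reads and the use of strand in counting. The 41 members and all gene lists were chosen with earlier results of these data known. The named genes are all members and, of each other cell cycle list, the 2 with the smallest p and the 2 with the highest mean. Genes with a mean of at least 10 were tested as log2(value + 1), a scale that understates changes of low genes. limma 3.58.1 in R 4.3.3 was used with a trended prior, line as a random block (consensus correlation 0.0077) and Benjamini-Hochberg adjustment at 0.05, and was tested on simulated data. Lines were fitted with 1 coefficient each. Single members and correlations were tested with 100000 permutations (numpy, scipy 1.17.1); correlation p-values are not adjusted, and members are read by an r of 0.6 against all genes, in place of the adjustment over members first planned. Low values repeat in whole steps, and dividing totals by the step gave the estimated reads. Alternatives were pseudocount 5, no filter or a minimum mean of 50, 2 other scalings, library weights, no block, line means, covariates and tumours left out.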

Additional observations from a re-analysis of the deposited data

Results flagged for a closer look

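In each line of 4 tumours, the gap between an extreme tumour and its nearest neighbour was compared with the range of the line (Dixon's criterion at 95%). Chance flags about 1 in 20 groups, and 22 of 220 values were flagged. The values are members that vary together and means built from them, so the flags are not separate events. The share flagged over all genes was not determined, so the 22 are a description. The line 2F7, with 3 tumours, was not examined in this way.

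KO specimen 5549 of line 1G10 was the high extreme in 15 of the 22. Its mean over the replication members was 8.88 and over the mitotic members 9.092, both in log2 units. Of the replication members it stood apart in GINS2 at 136.5 and RRM2 at 1124. Among genes of mitotic entry and chromosome structure it stood apart in TOP2A at 1745, CDK1 at 374.5 and CDC20 at 1252. In checkpoint and centromere genes it did so in BIRC5 at 609.4, BUB1 at 454.1, BUB1B at 256.4 and CENPF at 1062. In spindle genes it did so in KIF11 at 689, KIF20A at 714.7, KIF2C at 563 and NUSAP1 at 531.3.

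WT specimen 5535 of line 6C10 was the high extreme in TOP2A at 746.8, KIF11 at 398.9 and KIF20A at 240.6. In the same line TTK was lowest in specimen 5536, at 72.22. KIF2C was lowest in WT specimen 5528 of line 5B2, at 146.3. E2F2 was lowest in WT specimen 5531 of line 6C9, at 104.1, a tumour with the higher chromosome 20 level. CDC25C was lowest in WT specimen 5532 of line 6C9, at 3.903, which is 2 reads in that shallow library.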

How the results depend on the processing

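No paired analysis was possible because the specimen numbers are unique to a tumour and no number is shared between genotypes. Under the alternatives the 41 members stayed uncalled between KO and WT in all fits but that with library quality weights, which called 1 member, E2F2, at -0.58 (adjusted p = 0.021, limma; 0.122 to 0.978 under the other alternatives), among 738 genes called. The count of genes called, 1 in the fit reported, was 0 with 2 other scalings, with tumours left out as described in the report, with line means and with either covariate, and 0 to 2 when each tumour was left out in turn. With weights, the KO lines 2F7, 2B8 and 1G10 had 24, 1 and 1 members called against the WT lines. Of all genes, 49.2%, 6.51% and 2.03% were called there. The F test among KO lines called 16 of the 41 members, near the 40.2% of all genes that it called. The weighted fit of the lines gave specimen 5539 a weight of 67.2 and specimen 5533 one of 0.0015, and did not converge. The cause of these differences was not tested.

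Signs turned in members whose reported difference was up to 0.23 in size, KIF11 having the largest. Without specimen 5549 the difference was -0.022 for CDC6, -0.047 for MCM3, -0.033 for RRM1, -0.025 for RRM2, -0.053 for CCNA2, -0.083 for CCNB2, -0.059 for BUB1, -0.10 for CENPA and -0.13 for NUSAP1. Without specimens 5532 and 5533 it was 0.041 for CDT1, 0.014 for MCM5, 0.099 for CCNB1, 0.076 for CDK1, 0.042 for AURKB and 0.085 for BIRC5. With the chromosome 20 covariate it was 0.079 for CDT1, 0.040 for MCM5, 0.019 for CCNB1, 0.013 for CDK1 and 0.0068 for AURKB. With equal library totals it was 0.0050 for MCM5, 0.027 for CCNB1 and 0.028 for AURKB. With library weights it was -0.097 for CDC6, -0.12 for MCM2, -0.075 for MCM3, -0.026 for MCM4, -0.12 for MCM6, -0.092 for RRM1, -0.069 for RRM2, -0.051 for FOXM1, -0.00052 for CCNA2, -0.050 for CCNB2, -0.089 for BUB1, -0.036 for TTK, -0.091 for KIF11 and -0.076 for NUSAP1. Without specimens 5532, 5533 and 5549, an alternative chosen after the data were seen, it was -0.028 for CDC6, -0.040 for MCM2, -0.028 for MCM3, -0.031 for MCM6, -0.020 for RRM1, -0.066 for FOXM1, -0.032 for BUB1, -0.031 for KIF11 and -0.070 for NUSAP1. Leaving out each tumour in turn gave ranges that crossed 0: -0.022 to 0.15 for CDC6, -0.047 to 0.075 for MCM3, -1.3e-05 to 0.28 for MCM6, -0.033 to 0.053 for RRM1, -0.025 to 0.17 for RRM2, -0.053 to 0.12 for CCNA2, -0.17 to 0.043 for CCNB1, -0.083 to 0.11 for CCNB2, -0.14 to 0.040 for AURKB, -0.059 to 0.19 for BUB1, -0.10 to 0.15 for CENPA and -0.13 to 0.085 for NUSAP1.

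For the correlation with late differentiation, added after the data were seen, 3 members had an r of at most -0.6 and 0 an r of at least 0.6. The counts were 6 and 0 without specimens 5532 and 5533, where 5.75% and 9.11% of the genes other than members were so placed. Without specimen 5549 they were 0 and 1 (4.01% and 4.53%). Deviations from line means gave 10 and 0 (2.25% and 4.5%), and leaving out all 3 specimens gave 0 and 2 (6.53% and 7.54%). A minimum mean of 50 removes CDC25C and so leaves 40 members. Depth limits low members most: in specimen 5533 a single read is worth 9.14, and AURKA rests on 1 read there.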
